A study of Mus musculus with 8 samples.

Results

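Securin, encoded by Pttg1, and 5 genes of the machinery it belongs to were followed in the brains of 2 inbred mouse strains: the securin binding factor Pttg1ip, the separase Espl1 and the cohesin subunits Rad21, Smc1a and Smc3. A probe was taken when the gene name given for it by the array was one of these 6 symbols. This yielded 11 of the 56605 probes, with at least 1 probe for each of the 6 genes. The genes were chosen by the strain difference measured on these same arrays, in which the fall of Pttg1 was the largest of all probes detected on all 8 arrays, so the strain differences of these 6 genes are given below as a description without a test.

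The 4 B6 mice were C57BL/6J and the 4 BTBR/R mice were BTBRTF/ArtRbrc, a strain that carries the spontaneous T, tufted Itpr3 and black and tan alleles. All were males, and no treatment is given for them. Their age was 4 months, apart from BTBR/R replicate 1 at 6 months. RNA of the whole cerebral cortex and striatum of each mouse was hybridized to its own 1-colour Agilent array, so that each replicate was a separate animal. The 8 arrays lay on 1 slide, with the B6 arrays in slide column 1 and the BTBR/R arrays in slide column 2, and slide column and strain cannot be told apart.

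Sister chromatids are held together by cohesin, a ring built from the paired ATPases Smc1a and Smc3 and the kleisin Rad21. Securin keeps the protease separase inactive until the anaphase-promoting complex marks securin for destruction at anaphase, after which separase cuts the kleisin and the chromatids part. Most neurons of the adult brain do not divide, and in them cohesin is known for its part in folding chromatin into loops.

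The sequences that carry the securin and separase values are shown first, since each value is the brightness of a single 60-base probe. Positions are those of the mm9 build of the C57BL/6J genome as the array annotation gives them. Only bases 1 to 30 of each probe are printed, 5′ to 3′, and no base is marked in capitals.
Pttg1 probe 1, chr11:43233801-43233860, minus strand: ccgcctgtttgttacgatgcagatatttaa
Pttg1 probe 2, chr11:43234562-43234621, minus strand: tcatgggaatctggtaagggagtccgttca
Espl1, chr15:102154674-102154733, plus strand: gtgactacctcccaacttggttttgattat
Rec8, chr14:56244160-56244219: gggcccctcctgattcgtcctggacccaaa
Rec8 encodes the meiotic kleisin and is described with the pathway below. The Pttg1 probes lie 701 bases apart on the chromosome and share 1 RefSeq transcript in the array annotation, which lists 2 RefSeq and 2 Ensembl transcripts for probe 1 and 1 RefSeq and 2 Ensembl transcripts for probe 2. Exon and UTR annotation of mm9 was not used here. No other probe of the array shared a run of 20 bases with any of the 11 probes or with the Rec8 probes. The strain whose sequence each probe was designed on is not given in the sources used here. The sequence of BTBR/R was not analysed here, so weaker hybridization to a strain variant under a probe and a lower RNA level cannot be told apart.

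Values are given as the processed signal of an array, in arbitrary brightness units, and as the scaled signal, a log2 value set to 0 at the 75th percentile of the same array. Differences are BTBR/R minus B6 on that log2 scale, with the standard error (SE) of the limma fit. Calls required an adjusted p under 0.05 together with a 2-fold change or more, and detection on an array means that the scanner software marked the spot well above background. In processed signal, that percentile was 556 to 572 in B6 and 535 to 589 in BTBR/R. Detection differed more: 64.5% to 66.8% of the probes were detected in B6 and 53.5% to 57.2% in BTBR/R, and the lowest signal of a detected probe was 14.5 to 17.8 in B6 and 36.1 to 47.1 in BTBR/R. The 14874 probes detected on no array read a median of 1.34 higher in BTBR/R, and 67.7% of them were called higher. A probe called higher but detected on no array is therefore counted apart.

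The label of the tissue was checked against marker genes. All 9 probes for cortical neuron markers and 16 of 18 probes for striatal projection neuron markers were detected on all 8 arrays. None of these probes was called in either direction. Of all probes detected on all 8 arrays, only 1.16% were called lower and 1.04% higher. In such bulk tissue, fewer cells of a type and less RNA per cell cannot be told apart.

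Securin had the largest difference of the 6 genes. At Pttg1 probe 1, the processed signals of the B6 mice were 7999, 8663, 8361 and 7939, and those of the BTBR/R mice were 154.6, 133.5, 153.3 and 124.5. The 2 strains were far apart, and within each strain the arrays lay close together. The scaled signal was 3.87 ± 0.07 in B6 and -2.01 ± 0.17 in BTBR/R (SD, n = 4 each), a difference of -5.88 (SE 0.09), or 58.7-fold lower in BTBR/R. The probe was still detected on all 4 BTBR/R arrays, with a signal above the lowest detected signal of every array. It passed the call in the direction for which it was chosen. Of the probes detected on all 8 arrays, 1.16% were called lower and 1.04% higher.

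The 2nd probe of the gene was dim. At Pttg1 probe 2 the signals were 45.9, 51.4, 66.1 and 60.9 in B6 and 8.5, 10.6, 10.7 and 10.2 in BTBR/R. Every BTBR/R array read below every B6 array, and the probe was detected on the 4 B6 arrays and on no BTBR/R array. The scaled signal was -3.34 ± 0.24 in B6 and -5.83 ± 0.17 in BTBR/R (SD, n = 4 each), a difference of -2.48 (SE 0.14). Since the BTBR/R value lay under the detection limit, the fold is a bound. Set against the mean of the 4 BTBR/R limits, not the highest of them, Pttg1 probe 2 was at least 1.29-fold lower in BTBR/R. Normexp background correction, run with an offset of 50 added to each signal, gave -0.87, and the call was lost. Such an offset shrinks differences between signals this dim, so the loss does not tell whether the difference holds. Array by array, the deviations of the 2 Pttg1 probes from their strain means had a Pearson r of -0.06 over the 8 arrays, which share the slide and the scaling. Probe 2 was under the detection limit on the 4 BTBR/R arrays, so this r does not tell whether the probes agree.

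**Figure D1:**
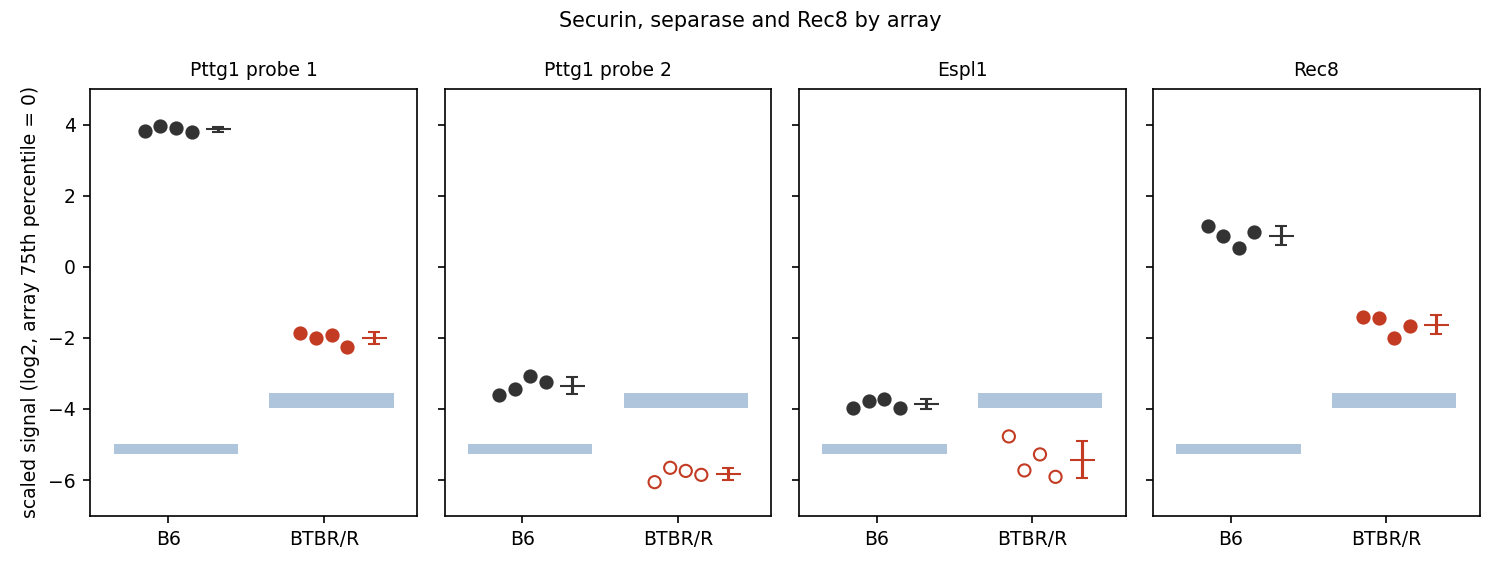
Scaled signal (log2, 0 at the 75th percentile of the array) of the 2 Pttg1 probes, the Espl1 probe and the detected Rec8 probe in B6 and BTBR/R mice. Each point is an array, open where the probe was not detected, the bars are the mean ± SD of 4 arrays, and the blue bands span the detection limits of the arrays of that strain. The BTBR/R values of Pttg1 probe 1 and Rec8 lie above the band and those of Pttg1 probe 2 and Espl1 lie under it.

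The securin binding factor, a membrane glycoprotein that carries securin into the nucleus, gave overlapping values in the 2 strains at both of its probes. Pttg1ip probe 2 (chr10:77061127-77061186) gave signals of 2260, 2260, 2288 and 2209 in B6 and 2235, 2051, 2195 and 2205 in BTBR/R. The 2 groups overlapped, with a scaled signal of 2.0 ± 0.04 against 1.94 ± 0.03 and a difference of -0.06 (SE 0.04). Pttg1ip probe 1, which crosses an exon junction between 77052444 and 77055605, overlapped too, at -1.96 ± 0.06 against -1.94 ± 0.05 (difference 0.02, SE 0.05). The sign of both small differences changed with the processing, from -0.05 to 0.13 for probe 1 and from -0.09 to 0.05 for probe 2.

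Separase was dim, and its B6 level lay within the range of the BTBR/R detection limits. The Espl1 signals were 35.7, 40.9, 42.1 and 36.3 in B6 and 20.8, 10.1, 14.8 and 9.8 in BTBR/R. All 4 BTBR/R arrays were below all B6 arrays, and the highest of them was the 6-month-old BTBR/R replicate 1. The scaled signal was -3.87 ± 0.13 in B6 and -5.42 ± 0.51 in BTBR/R (SD, n = 4 each), a difference of -1.56 (SE 0.24). Espl1 was detected on the 4 B6 arrays and on no BTBR/R array. The detection limit was -5.28 to -4.98 in B6 and -3.97 to -3.55 in BTBR/R. The B6 level of Espl1 did not exceed the mean of the BTBR/R limits, so no fold is given. For the same reason, the loss of detection in BTBR/R does not by itself show a fall. With normexp and its offset of 50 the difference was -0.19 and the call was lost. The offset is larger than all of these signals and shrinks the difference by itself.

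The cohesin ring genes differed little. For the kleisin Rad21 (chr15:51794326-51794385) the signals were 4734, 4569, 4792 and 4823 in B6 and 5094, 4845, 5113 and 5336 in BTBR/R. All BTBR/R arrays lay above all B6 arrays, but by little, at a scaled signal of 3.17 ± 0.01 against 3.07 ± 0.03 and a difference of 0.10 (SE 0.04), or 1.07-fold. This difference was between 0.05 and 0.21 under the 17 other settings.

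Smc3 had 2 probes. Smc3 probe 1, which crosses an exon junction (chr19, between 53718415 and 53719230), gave 513, 522, 473 and 526 in B6 and 550, 529, 537 and 608 in BTBR/R. Its groups did not overlap, and the difference was 0.12 (SE 0.05). Smc3 probe 2 (chr19:53719568-53719627) gave 3321, 3102, 2856 and 3466 in B6 and 3291, 3018, 3513 and 3662 in BTBR/R, and these groups overlapped (difference 0.07, SE 0.07). Under the other settings the difference was 0.09 to 0.23 for probe 1 and 0.03, without B6 replicate 3, to 0.18, with spike-in scaling, for probe 2.

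Its ATPase partner Smc1a, an X-linked gene, had 3 probes. At Smc1a probe 3 (chrX:148496427-148496486) the signals were 5880, 5982, 5673 and 6484 in B6 and 6302, 6125, 6274 and 6647 in BTBR/R, with overlapping groups and a difference of 0.07 (SE 0.05), which was 0.04 to 0.18 under the other settings. Smc1a probe 2 (chrX:148481288-148481347) overlapped as well, with a difference of -0.03 (SE 0.06) and a range of -0.06 to 0.08 over the other settings. Smc1a probe 1, assigned to an Ensembl transcript without a RefSeq entry, was detected on no array. It read -6.31 ± 0.46 in B6 and -5.19 ± 0.55 in BTBR/R (SD, n = 4 each), a difference of 1.12 that passed the call as most probes detected on no array did. Smc1a probe 1 was called under 8 of the 16 other settings that could fit it, with differences of 0.28 to 1.28.

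Of the 11 probes, 8 were detected on all 8 arrays, 2 on the B6 arrays only and 1 on none. Called lower were 3 of them (both Pttg1 probes and Espl1) and called higher was 1, the undetected Smc1a probe, where 2.27% of all probes were called lower and 20.2% higher. Among the 8 detected on all arrays, 1 lay wholly below B6 in BTBR/R and 2 wholly above, against 16.4% and 16.3% of all such probes. Nothing is read from these counts, since the same contrast chose the genes. The 7 detected on all 8 arrays other than Pttg1 probe 1 spanned differences of -0.06 to 0.12, with a median of 0.07. Over all probes detected on all 8 arrays the median difference was 0.00, and scaling by spike-in probes raised the differences of all probes alike, from a median of 0.07 to 0.18 over the 56605 probes. The median SD within a strain over the 8 probes was 0.06 in both strains, against 0.08 over all probes detected on all arrays. BTBR/R replicate 1, the older mouse, was the highest of the 4 BTBR/R arrays at 4 of the 11 probes and the lowest at 2.

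**Figure D2:**
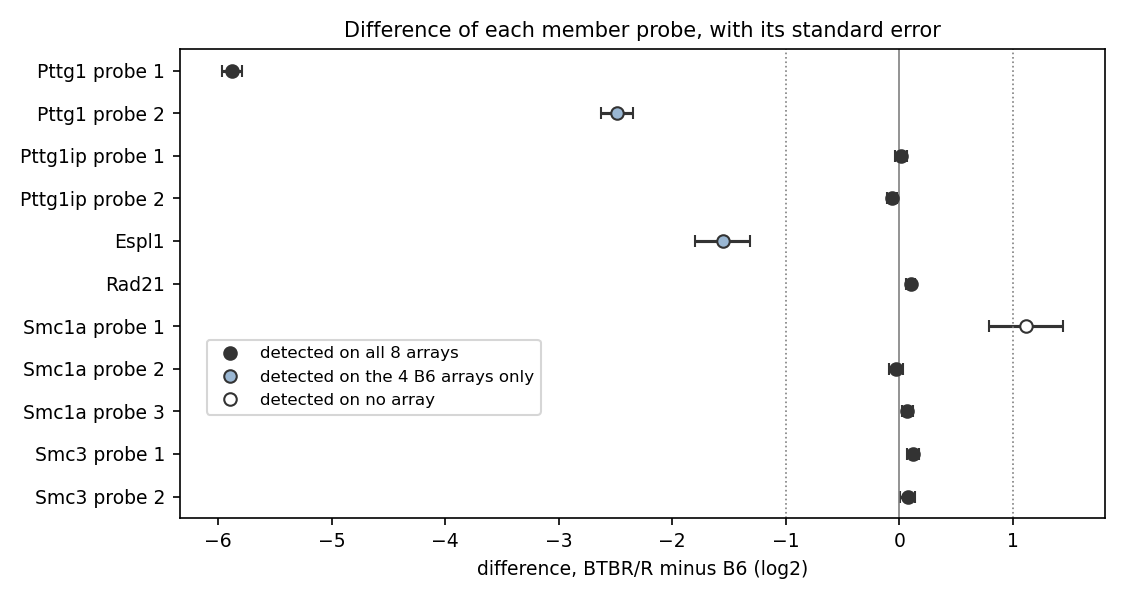
Difference between BTBR/R and B6 (log2, x axis) for each of the 11 probes, with the standard error of the fit as bars. Dotted lines mark a 2-fold change, and the fill tells on which arrays a probe was detected. Both Pttg1 probes and Espl1 lie beyond the lower line, Smc1a probe 1 lies beyond the upper line, and the other 7 probes lie between -0.06 and 0.12.

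The promoters were read for a pair of motifs of cell cycle genes, CCAAT and the cell cycle homology region TTTGAA, each on either strand. The RefSeq promoter table (GRCm38.p6, 300 bases around each start) held 5 of the 6 genes, without Rad21. Espl1 alone held both motifs, as did 6.95% of the 32851 promoters in the table, where 37.4% held CCAAT and 17.9% held TTTGAA. The Espl1 stretch is shown because it holds both, with the matches in capitals (ATTGG is CCAAT read from the other strand).
Espl1, GRCm38.p6, chr15:102296153-102296272, plus strand: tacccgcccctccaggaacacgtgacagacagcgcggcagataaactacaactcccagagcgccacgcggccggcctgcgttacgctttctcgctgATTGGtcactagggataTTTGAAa
The matches began 44 and 27 bases before the start that the table uses. The annotated gene starts earlier, at 102296254, so the last 19 bases of the stretch, with the TTTGAA match, lie inside it. Smc1a held ATTGG, 19 bases before its start, and Pttg1ip and Smc3 held neither motif. The window of Pttg1 held neither motif and lay wholly inside the annotated gene. A match of letters is a description of the sequence and was not tested as a binding site.

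The other genes of the pathway came from 6 lists with 89 genes and 188 probes, of which 120 were detected on all 8 arrays. Called lower were 2 probes, for Rec8 and Bub1b, where 2.27% of all probes were called lower. Called higher were 21, where 20.2% of all probes were, of which 17 were detected on no array and the other 4 on BTBR/R arrays only and not on all of them, so that no probe detected on all 8 arrays was called higher. The shares of 2.27% and 20.2% also stand beside the counts of each list below. At an adjusted p below 0.05 with any fold, 18 of the 120 probes (15%) were lower and 5 (4.17%) higher in the limma fit, against 13.9% and 13% of all probes detected on all 8 arrays.

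Rec8, the kleisin that takes the place of Rad21 in meiosis, fell in BTBR/R. Its signals were 1236, 1024, 799 and 1129 in B6 and 214, 197, 144 and 187 in BTBR/R. The groups were well separated, with a scaled signal of 0.88 ± 0.26 against -1.62 ± 0.27 (SD, n = 4 each) and a difference of -2.50 (SE 0.17, limma adjusted p = 2.76e-05), or 5.66-fold lower. It was detected on all 8 arrays and was called under all 17 other settings, at -2.62 to -2.12. The other Rec8 probe, chr14:56237080-56237139, was detected on no array and was called higher at 1.49. The 2 probes of the gene were thus called in opposite directions, and the fall rests on the 1 that was detected.

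Cohesin and its regulators comprised 22 genes and 45 probes, with a median difference of 0.01 over the 25 probes detected on all 8 arrays. Besides the fall of Rec8, 6 probes were called higher, 1 of them the other Rec8 probe, and all 6 were detected on no array. Among the 25 probes detected on all 8 arrays, the next largest differences were those of Hdac8, the Smc3 deacetylase, at -0.44 (limma adjusted p = 0.0331), and of Mau2, a part of the cohesin loader, at -0.35 (limma adjusted p = 0.00202). With normexp, Hdac8 stood at -0.12 and this Mau2 probe at -0.31. A 2nd Mau2 probe stood at 0.11 (limma adjusted p = 0.0968). The other loader subunit, Nipbl, was at 0.06, 0.06 and 0.09 at its 3 probes detected on all 8 arrays, and the groups overlapped at each of them.

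The anaphase-promoting complex and its partners, which mark securin for destruction, comprised 19 genes and 51 probes, with a median difference of 0.03 over 42 probes. None was called lower and 3 were called higher, of which 2 were detected on no array and the 3rd, for Anapc7, on 2 BTBR/R arrays only. Anapc15 was lower by less than 2-fold at -0.43 (limma adjusted p = 0.0117), and Fbxo5, an inhibitor of the complex, at -0.37 (limma adjusted p = 0.00752). With normexp, Anapc15 stood at -0.33 and Fbxo5 at -0.12. The activator Cdc20 stood at 0.39 (limma adjusted p = 0.523), with an SD of 0.93 over the BTBR/R arrays, because BTBR/R replicate 3 read -0.84 and the other 3 between -2.87 and -2.45. Without that array its difference was -0.07.

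Among the spindle checkpoint and chromosomal passenger genes, 14 genes and 29 probes, only Bub1b was called lower, and 7 probes were called higher, 6 of them detected on no array. Bub1b, the checkpoint kinase that restrains the anaphase-promoting complex, gave signals of 24.6, 37.3, 26.9 and 36.7 in B6 and 9.5, 11.9, 12.0 and 11.4 in BTBR/R. It was detected on the 4 B6 arrays and on no BTBR/R array, and the groups did not overlap. The difference of -1.47 (SE 0.16) is a description only, since the BTBR/R readings lay under the detection limit. No fold is given, since the B6 level lay under the detection limit of BTBR/R too. With normexp and its offset of 50 the difference was -0.49 and the call was lost, but such an offset shrinks differences between signals this dim. The largest differences among the 11 probes detected on all 8 arrays were those of Cdca8 (-0.45, limma adjusted p = 0.015), Mad2l1 (-0.29) and Zwilch (-0.27). With normexp, Cdca8 stood at -0.21, Mad2l1 at -0.21 and Zwilch at -0.20.

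Condensin and the SMC5/6 complex, relatives of cohesin, had no call among 14 genes and 28 probes, with a median difference of -0.04 over 24 probes. Those 24 were detected on all 8 arrays, and only 1.16% of all such probes were called lower and 1.04% higher. Ncapd2 was lower by less than 2-fold at 1 probe, at -0.43 (limma adjusted p = 0.000334), while its other probe stood at 0.00. Smc4, an ATPase of condensin, stood at -0.37 (limma adjusted p = 0.0107). Ncaph stood at 0.38 (limma adjusted p = 0.325), with overlapping groups and an SD of 0.55 over the BTBR/R arrays. Without the older mouse, BTBR/R replicate 1, which read highest, its difference was 0.13. Of the genes reported as partners or targets of securin, Myc stood at 0.27, Trp53 at -0.24 and Xrcc6 at 0.06, none called, and the single call, for Fgf2, was at a probe detected on no array.

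**Figure D3:**
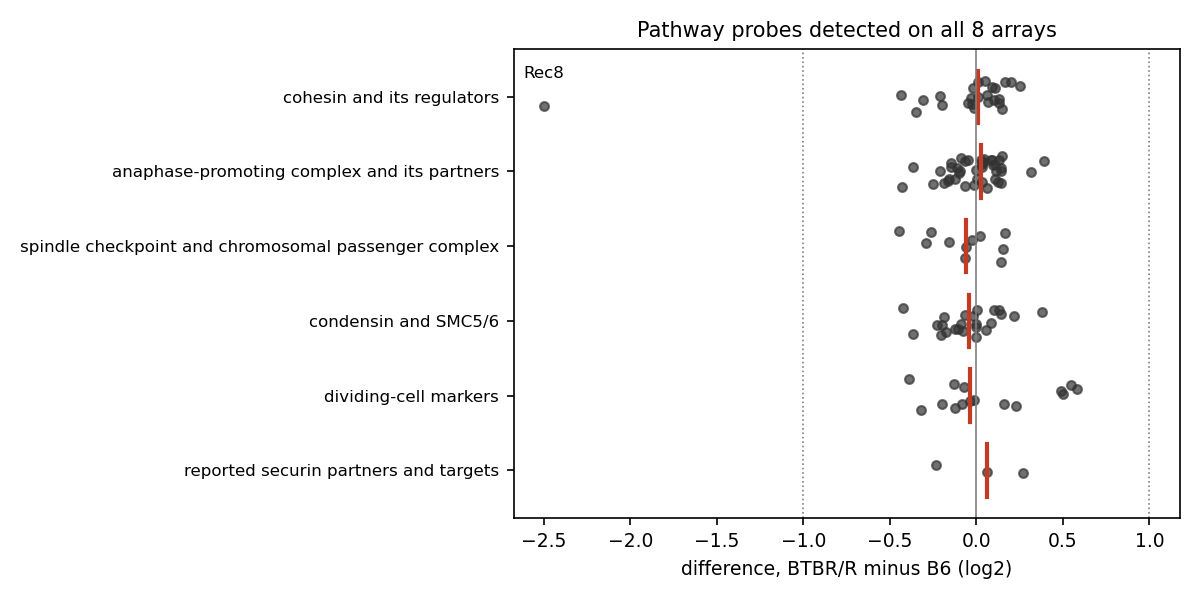
Difference between BTBR/R and B6 (log2, x axis) of the 120 pathway probes detected on all 8 arrays, by list. Each point is a probe, red bars are the median of a list and dotted lines mark a 2-fold change. Rec8 at -2.50 is the only point beyond a dotted line, and the medians lie between -0.06 and 0.06.

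Markers of dividing cells, in which securin and separase are best known, were set beside the fall of Pttg1. Their 16 genes had 28 probes, of which 15 were detected on all 8 arrays, none was called lower and 4 were called higher, with 2 of these detected on no array and the probes of Kif11 and Top2a on 1 BTBR/R array. The summed level of the 15 probes, on a linear scale with the 75th percentile of the array as 1, was 8.68 to 9.37 in B6 and 8.10 to 8.45 in BTBR/R, without overlap. Of single probes detected on all 8 arrays, 16.4% lay wholly below B6 and 16.3% wholly above. Pcna, the DNA polymerase clamp, contributed most to the sum and stood at -0.32 (limma adjusted p = 0.00879). Mki67, a defining marker of proliferation, was at -2.44 ± 0.08 in B6 and -2.53 ± 0.27 in BTBR/R, with overlapping groups, and the mitotic kinase Cdk1 was detected on no array. Ccnb2 was higher by less than 2-fold at 0.55 (limma adjusted p = 0.000606), and Mcm3 stood at 0.50 at 1 probe (limma adjusted p = 0.000488) and at -0.39 at another (limma adjusted p = 0.00522). Tyms stood at 0.58 (limma adjusted p = 0.354), with BTBR/R replicate 2 at -0.34 and the other BTBR/R arrays between -2.66 and -1.96, and its difference was 0.11 without that array.

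The summed levels of the other cell types that such a dissection could hold are given with their ranges. Neuroblast markers (8 of 10 probes detected on all 8 arrays) ranged from 4.47 to 5.30 in B6 and from 4.07 to 4.64 in BTBR/R. Oligodendrocyte progenitor markers (4 of 8) ranged from 9.42 to 11.3 and from 10.5 to 12.9, and choroid plexus markers (7 of 11) from 3.15 to 43.5 and from 6.90 to 27.1. Microglia markers (8 of 8) ranged from 49.6 to 51.6 and from 46.1 to 50.4. The members of these lists did not move as one. The 2 probes of Cx3cr1, the fractalkine receptor of microglia, differed in direction, with 1 called higher at 1.71 (limma adjusted p = 7.59e-07) and the other lower by less than 2-fold at -0.71 (limma adjusted p = 8.71e-05). Of the oligodendrocyte progenitor probes, 1 of Cspg4 was called lower. It was detected on the 4 B6 arrays and on no BTBR/R array, so its bound of at least 2.51-fold lower is a description only. The Cspg4 probe detected on all 8 arrays stood at -0.14. Endothelial markers (8 of 9) were the only one of these 5 lists without overlap, at 36.6 to 42.7 in B6 and 30.5 to 34.2 in BTBR/R. Of single probes detected on all 8 arrays, 16.4% lay wholly below B6 and 16.3% wholly above. Nothing is read from the lack of overlap, and no such share was computed for sums. The part of any of these cells in the Pttg1, Espl1 and Rec8 values was not tested.

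The neighbours of Pttg1 were taken by position, within 1 Mb on either side on chromosome 11 in mm9. There were 26 such probes with 17 gene names, 14 of them detected on all 8 arrays. None was called lower and 4 were called higher, beside 2.27% and 20.2% of all probes, and the 4 were all detected on no array. The 14 differences lay between -0.29 and 0.66, with a median of 0.16. Slu7, a splicing factor gene, gave -0.29 at the probe 17.1 kb away (limma adjusted p = 0.0455) and 0.35 at the probe 26.8 kb away (limma adjusted p = 0.00184), opposite signs within 1 gene. The largest of the 14 was C1qtnf2, a secreted protein of the C1q and TNF related family, 70.2 kb away, which was 1.58-fold higher in BTBR/R at 0.66 (SE 0.07, limma adjusted p = 0.000119).

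**Figure D4:**
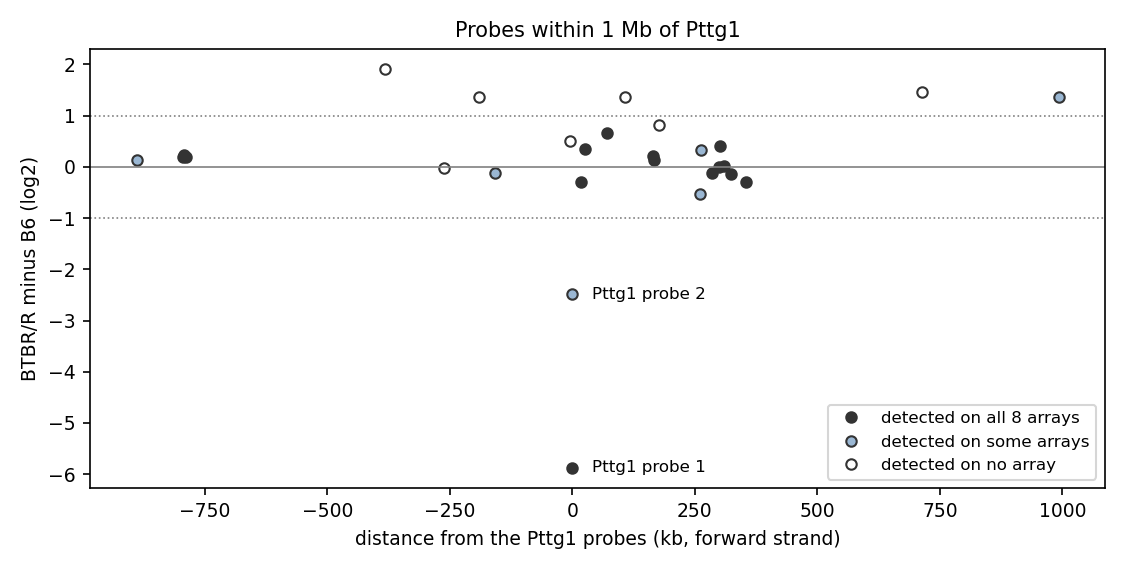
Difference between BTBR/R and B6 (log2, y axis) of the probes within 1 Mb of Pttg1 against their distance from it in kb. Each point is a probe, with its fill showing on which arrays it was detected, and dotted lines mark a 2-fold change. The 14 neighbouring probes detected on all 8 arrays lie between -0.29 and 0.66, while the Pttg1 probes lie at -5.88 and -2.48.

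The probes whose pattern over the 8 arrays was most like Pttg1 probe 1, by Pearson r among 28546 probes detected on all arrays, were those of Cfap69 (difference -1.78), 4833420G17Rik (-1.73), the histone gene Hist4h4 (-3.32), Acadl, an acyl-CoA dehydrogenase of mitochondria (-2.41), and a probe of an Ensembl transcript without a gene symbol on chromosome 16 (-3.90). Each had an r between 0.9990 and 0.9994, and 275 probes had an r above 0.99. With 2 strains of 4 arrays on 1 slide, such an r mostly records the gap between the strains, and it is given as a description of likeness.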

How the data were processed

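RNA of the cerebral cortex and striatum of 4 B6 and 4 BTBR/R mice was measured on 8 arrays, grouped by the strain in the labels. The authors deposited the spot intensities and detection flags of Agilent Feature Extraction 10.7.3.1 (tool per the submitters' processing notes), of which the processed signal is corrected for background and spatial trend, and log2 values scaled in GeneSpring. Here, control spots (62976 spots less 59305 others) and 36 to 52 outlying spots per array were left out, spots of a probe were averaged, and the log2 processed signal, scaled to 0 at the 75th percentile of each array, was fitted with limma 3.58.1 in R 4.3.3 over all 56605 probes, with Benjamini-Hochberg adjustment. No probe was saturated. Precision is limited by the 4 arrays per strain.

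A lower bound on a fold sets the brighter mean against the mean detection limit of the arrays of the other strain. Named genes are all members, the called genes, of the pathway lists or within 1 Mb of Pttg1, whose probe was detected on every array of a strain (none of the latter was), the 3 largest differences per list among probes detected on all 8 arrays, and the 5 probes most like Pttg1. C1qtnf2, Slu7, Nipbl, Pcna, Mki67, Cdk1, Cx3cr1, Cspg4 and the genes named beside calls at undetected probes were added after their values were seen. Lists with older and newer symbols had 8 symbols without a probe. The members and lists were chosen with earlier results of these data known. The fit was tested on simulated data. The background alternative was normexp with an offset of 50. Others were scaling and normalization settings, the authors' log2 values, the methods' t-test, a filter on dim probes, a replicate block and leaving out each mouse. Protein sequences were not used here. Python 3.11.15, numpy 2.4.6, pandas 2.3.3 and matplotlib 3.10.9 drew the figures.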

Additional observations from a re-analysis of the deposited data

Results flagged for a closer look

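Ncapd2, a condensin subunit, had a B6 array that stood away from the others at its dimmer probe. B6 replicate 2 read -0.54, and the nearest of the other 3 B6 arrays read -0.60, a gap of 0.909 of the range of the group. Among 60 groups of 4 arrays looked at, 1 stood out in this way, and chance alone gives about 1 in 20.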

How the results depend on the processing

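Pttg1 probe 1 and Rec8 kept their direction and their call under all 17 other settings. Pttg1 probe 2, Espl1 and Bub1b kept their direction under all 17 and their call under 16, all but normexp. The normexp offset of 50 by itself shrinks differences between signals this dim. Counts of calls changed with the processing. Probes called lower numbered 1284, and 332 with normexp. Probes called higher numbered 11413, but 231 with normexp, 544 with quantile normalization and 362 when the fit was limited to detected probes. Among the pathway lists, 2 probes were called lower, 1 with normexp and 4 with quantile normalization, and 2 to 5 when a mouse was left out, with 5 without BTBR/R replicate 1 and 4 without BTBR/R replicate 4. The 21 called higher there became 0 with normexp, 1 with quantile normalization and 0 among detected probes. Near Pttg1 the 4 called higher became 0 under each of these, and leaving out a mouse gave 4 to 5. For those results, leaving out a mouse gave 1221 to 1321 lower and 10552 to 11608 higher over all probes, and 16 to 21 higher in the lists. Cdc20, not called at 0.39, ranged from -0.0688 without BTBR/R replicate 3 to 0.61 without BTBR/R replicate 2. The cause of these changes was not tested. The replicate numbers did not pair the mice (correlations of deviations of 0.00, -0.07, -0.04 and 0.16), and with a replicate block 1207 probes were called lower and 10486 higher, with 2 lower and 17 higher in the lists. The methods' t-test at the same thresholds after Benjamini-Hochberg adjustment gave 1218 lower and 10559 higher. Detection limits what can be said of Espl1, Bub1b and Pttg1 probe 2, which were under the limit in BTBR/R.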
